A study of Homo sapiens with 48 samples.

Results

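The change from 6 to 24 h after TGFβ and IL-1β was examined in fibroblasts that carried Cas9 and a guide RNA against GLIS3 (GLIS3 CRISPRko). The comparison used 3 libraries harvested after 24 h and 3 harvested after 6 h, which are 6 of the 48 RNA-seq libraries of the series and were chosen by their labels alone. All cells of the arm were IL11mNG fibroblasts, a single-cell clone of an immortalized human skin fibroblast line in which mNeonGreen reports IL11, transduced with Cas9. Control cells carried a non-targeting guide and were treated alike. Both ligands were given at 10 ng per ml each, added at staggered times so that the 0, 6, 12 and 24 h cells were collected together, with 3 libraries per cell and time (24 in the arm). The knockout cells were a drug-selected bulk population, in which different cells may hold different edits, and the edits were not measured here.

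IL-1β acts through MyD88 to activate NF-κB and MAP kinases, which turn on cytokine, chemokine and AP-1 genes within hours. The same pathway induces its own brakes, among them NFKBIA, which retains NF-κB in the cytoplasm, and TNFAIP3, a ubiquitin-editing enzyme, so that many early transcripts fall while the ligand is still present. TGFβ acts through receptor serine kinases and SMAD proteins on matrix and contractile genes, often over longer times. GLIS3 is a zinc finger transcription factor of the GLI-like family, which the study placed upstream of the IL-6 family cytokine IL11 in these cells. The guide is shown because it defines the cells. It lies on the minus strand at chr9:4117887-4117906 (GRCh38), in exon 4 of 11 of GLIS3, in coding sequence, and the capitals mark the adjacent motif that Cas9 needs.
GLIS3 guide: ccacatcgaccagcgcaaagGGG

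GLIS3 itself had 3 to 5 counts in the knockout libraries at 6 h and 4 to 21 at 24 h, against 6 to 45 in the control libraries of all times. The 6 knockout libraries held 2761335 to 8542400 counts, which limits what can be seen for low genes. Fibroblast markers were high at both times (VIM 20100 to 30800 CPM, here counts scaled to the library total alone), although TWIST1 was at 0 at 6 h. Of the keratinocyte markers 8 of 10 were at 0 at 6 h, and those of melanocytes summed to at most 1.05 CPM at either time. On the same scale leukocyte markers summed to 22.6 to 30.2 CPM at 6 h and 43.1 to 65.5 CPM at 24 h, nearly all CD68, whose change did not pass the test (log2 0.35, adjusted p = 0.19). Endothelial markers summed to 0.29 to 0.575 CPM at 6 h and 3.13 to 7.14 CPM at 24 h, and TEK, the 1 member tested, was called higher (log2 6.85, and 2.92 in control cells), with 0 counts at 6 h, so that the fitted value is no bound, while CDH5, KDR and ERG were at 0 at both times. Replicate 3 at 24 h stood apart from the other knockout libraries with a scaling factor of 1.51, as did 1 control library at 6 h and 1 knockout library at 0 h, and values without these 3 libraries are given beside the results whose call or count they changed most. Without them 2293 genes were called from 6 to 24 h (1100 higher and 1193 lower), 1270 from 6 to 12 h and 1472 from 12 to 24 h. The cut was a factor above 1.3, so that low factors were not left out. Knockout 6 h replicate 2 had the lowest factor of the arm (0.681) and stayed in these fits. Leaving out that library alone gave 1771 calls from 6 to 24 h. Replicates differed by more than sampling noise, and since the labels do not say that they were separate cultures, p-values measure the spread between these libraries, which may be technical.

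Of 10962 genes tested with edgeR's quasi-likelihood test and Benjamini-Hochberg adjustment, 2649 (24.2%) passed an adjusted p of 0.05 between 6 and 24 h in GLIS3 CRISPRko. The calls were nearly even in direction, with 1323 higher at 24 h (12.1%) and 1326 lower (12.1%), of which 743 and 548 changed by more than 1 on the log2 scale. The split depended on the scale. On the authors' TPM, where limma was used, the median of all genes lay at 0.53 rather than 0.08 (log2), and 3766 genes were called higher against 299 lower. Relative to that shift the 149 called genes named here all kept their direction, whereas DNAJB9 and COL8A1 did not without it. RNA was measured in bulk, so fewer cells of one kind and less RNA per cell cannot be told apart.

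Between 6 and 12 h 962 genes were called (8.78%), and between 12 and 24 h 1789 were called (16.3%); these comparisons share libraries with the one from 6 to 24 h. From 6 to 12 h 424 genes were higher (3.87%) and 538 lower (4.91%), and from 12 to 24 h 938 were higher (8.56%) and 851 lower (7.76%). On TPM these counts were 193 and 107, and 1250 and 166. Against the 0 h knockout libraries 1443 genes were higher (13.2%) and 1182 lower (10.8%) at 6 h, and 994 were higher (9.07%) and 743 lower (6.78%) at 24 h. The 12 h mean lay between the 6 and 24 h means for 78.8% of the genes called higher and 77.9% of those called lower, against 45.3% of all genes tested. The libraries of the 2 times did not overlap for 35.2% of all genes tested.

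Cytokines, chemokines and the inducible cyclooxygenase were among the largest falls. By the naming rule these were the 15 genes with the largest called fall, a mean of at least 10 CPM over the 6 libraries and no overlap between times, and they fell by log2 values between -7.94 and -3.85. The first was LIF, an IL-6 family cytokine at chr22:30240453-30246759 (GRCh38). Its level was 646, 900 and 544 CPM in the 6 h libraries, 27.6 on average at 12 h, and 3.00, 1.52 and 3.19 at 24 h. Every 24 h library was far below every 6 h library, where the rule required no overlap, and the log2 fold change was -7.94 (SE 0.35, adjusted p = 1.2e-17). PTGS2, the inducible cyclooxygenase, fell from 1261, 1749 and 1001 CPM to 11.7, 8.19 and 11.1 CPM (log2 -6.98, SE 0.30). At 24 h PTGS2 lay below its own 0 h mean of 77.0 CPM, while LIF remained above its 0 h mean of 0.454 CPM.

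CXCL1, a neutrophil chemokine, stood at 2279, 3756 and 2527 CPM at 6 h and at 208, 207 and 141 CPM at 24 h, a log2 change of -3.95 (SE 0.29, adjusted p = 3.3e-12). CXCL3 fell from a mean of 1417 ± 330 CPM (SD, n = 3) to 53.8 ± 3.39 CPM (log2 -4.72) and CXCL2 from 501 ± 173 to 34.8 ± 3.14 CPM (log2 -3.85). The levels at 24 h were still above the 0 h means of these chemokines, which ranged from 0.162 CPM for CXCL2 to 1.27 CPM for CXCL1. Growth factor and cytokine genes were in the same group. HBEGF, a ligand of the EGF receptor, fell from 167 ± 18.9 to 5.28 ± 0.382 CPM (log2 -4.96), and CSF2, which encodes GM-CSF, fell from 1054 ± 156 to 48.6 ± 6.27 CPM (log2 -4.45).

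Feedback regulators of growth factor signalling fell with them. ERRFI1, an inhibitor of the EGF receptor, went from 88.5 ± 10.4 to 3.88 ± 1.46 CPM (log2 -4.38), and SPRY2, an inhibitor of receptor tyrosine kinase signalling, from 38.6 ± 0.905 to 2.49 ± 1.94 CPM (log2 -4.29). The remaining genes were ANGPTL4, an inhibitor of lipoprotein lipase (log2 -4.96), TRAF1, an adaptor of TNF receptors (-4.48), ESM1, a secreted proteoglycan (-4.12), MTSS1, an actin and membrane binding protein (-4.10), TUBB4A, a β-tubulin (-3.99), and RPSAP52, a ribosomal protein pseudogene whose reads may be shared with its copies (-3.95). Of the 15 genes, 11 remained above their 0 h mean at 24 h, and in 14 the 12 h mean lay between the other times, the exception being CSF2 with 1495 CPM at 12 h. In control cells 14 of the 15 were also called lower, TUBB4A being the exception (log2 -0.54, adjusted p = 0.64).

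**Figure D1:**
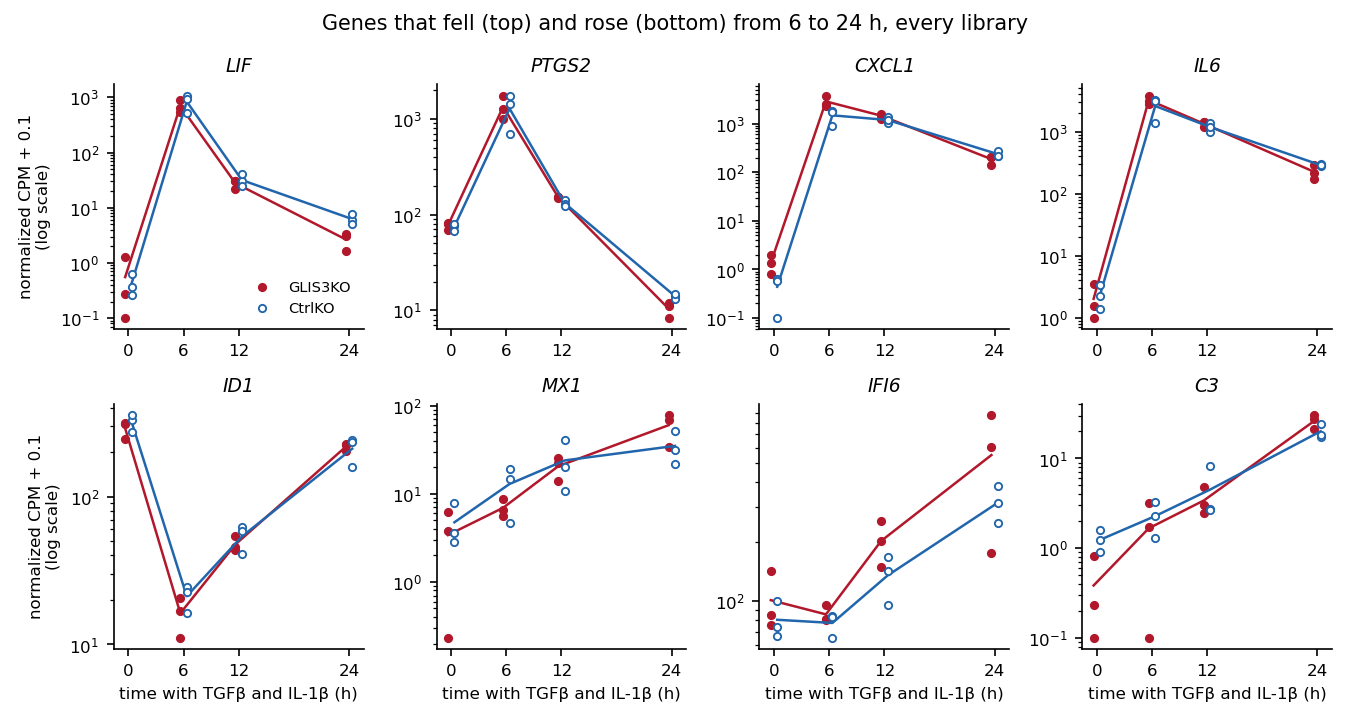
Normalized CPM (log axis, 0.1 added) of LIF, PTGS2, CXCL1 and IL6 in the upper row and ID1, MX1, IFI6 and C3 in the lower row against hours with TGFβ and IL-1β, with a point per library and lines joining the means of 3 libraries, for both cells. In GLIS3 CRISPRko LIF falls from 544 to 900 CPM at 6 h to 1.52 to 3.19 CPM at 24 h, and ID1 rises from 10.97 to 20.7 CPM to 202 to 228 CPM.

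The promoters of CXCL1, CXCL3, CXCL5 and NFKBIA are shown because a κB-type sequence lies in each, although these genes moved in different directions. They are the 250 bases before the RefSeq start (GRCh38.p14), each written along its gene's strand, with capitals for GGGANTTTCC or its reverse complement GGAAANTCCC, which were searched on both strands. CXCL1 is at chr4:73869143-73869392 (plus strand), CXCL3 at chr4:74038690-74038939 (minus), CXCL5 at chr4:73998678-73998927 (minus) and NFKBIA at chr14:35404750-35404999 (minus).
CXCL1: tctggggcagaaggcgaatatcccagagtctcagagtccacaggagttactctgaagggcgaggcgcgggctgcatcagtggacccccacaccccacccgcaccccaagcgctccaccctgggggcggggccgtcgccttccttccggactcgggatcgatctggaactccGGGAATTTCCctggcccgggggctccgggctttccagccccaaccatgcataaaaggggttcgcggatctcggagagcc
CXCL3: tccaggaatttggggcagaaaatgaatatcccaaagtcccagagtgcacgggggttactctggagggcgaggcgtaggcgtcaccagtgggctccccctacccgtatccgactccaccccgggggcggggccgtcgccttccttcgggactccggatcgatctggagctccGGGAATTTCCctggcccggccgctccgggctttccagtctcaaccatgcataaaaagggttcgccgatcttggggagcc
CXCL5: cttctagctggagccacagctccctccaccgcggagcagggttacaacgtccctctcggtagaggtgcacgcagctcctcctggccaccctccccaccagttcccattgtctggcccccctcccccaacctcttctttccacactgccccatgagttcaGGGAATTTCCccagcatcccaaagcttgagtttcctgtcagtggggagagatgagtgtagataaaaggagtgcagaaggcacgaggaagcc
NFKBIA: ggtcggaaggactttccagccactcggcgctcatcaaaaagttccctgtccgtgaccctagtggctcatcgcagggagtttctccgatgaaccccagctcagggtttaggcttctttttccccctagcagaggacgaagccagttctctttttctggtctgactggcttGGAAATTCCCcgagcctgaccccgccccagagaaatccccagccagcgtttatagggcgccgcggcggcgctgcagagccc

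These letters occurred in 0.546% of 27305 RefSeq promoters of this length. They occurred in 3 of the 12 matched promoters among the largest falls (CXCL1, CXCL2 and CXCL3) and in none of the 10 matched among the largest rises. They also occurred in 5 of 10 matched chemokine promoters, where CXCL1, CXCL2 and CXCL3 fell and CXCL5 and CXCL6 rose, in 5 of 24 matched promoters of the NF-κB list and in 4 of 34 of the interferon list (11.8%), which mostly rose. A match is a description of the sequence and does not show that a factor bound there.

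The NF-κB list held subunits, feedback inhibitors and early targets. Of 28 members tested 20 were called lower and 0 higher, with a median log2 change of -1.61 against 0.08 for all genes tested. In control cells the counts were likewise 20 and 0 (median -1.36), and on TPM 15 were called lower and 0 higher. ICAM1, an adhesion molecule for leukocytes, stood at 431, 580 and 407 CPM at 6 h and at 46.9, 59.2 and 34.3 CPM at 24 h (log2 -3.36, adjusted p = 3.1e-13). TNFAIP8, a regulator of apoptosis, fell by a log2 change of -3.40 and TNFAIP2, an NF-κB target, by -3.06.

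The brakes also fell. TNFAIP3 was at 368, 510 and 345 CPM at 6 h, 89.6 CPM on average at 12 h, and 79.3, 79.2 and 69.5 CPM at 24 h (log2 -2.42), so that most of its fall came before 12 h. It remained above its 0 h mean of 5.59 CPM. NFKBIA was at 488, 552 and 491 CPM at 6 h and at 271, 266 and 216 CPM at 24 h, with no overlap and a log2 change of -1.03 (SE 0.18, adjusted p = 4.8e-05). Its 24 h mean of 251 CPM was above the 39.4 CPM of 0 h. NFKB1, the p105 precursor of p50, fell by a log2 change of -2.46 (adjusted p = 7.3e-11) and was chosen after its values were seen.

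Of 13 chemokines tested 8 were called lower and 3 higher, with a median of -2.33, against -1.43 in control cells (7 lower and 3 higher), and the counts were the same on TPM. CCL2, a monocyte attractant, was at 1699, 2250 and 1516 CPM at 6 h and at 209, 107 and 107 CPM at 24 h (log2 -3.69). CXCL8, listed as IL8, was at 41660, 49660 and 34890 CPM at 6 h and at 13050, 6962 and 5045 CPM at 24 h (log2 -2.33, adjusted p = 0.00063). Relative to their mean the 24 h libraries were the more scattered, and all of them lay under the 6 h libraries. CCL20, an attractant of CCR6-bearing cells, fell from 15.5 ± 0.637 to 0.234 ± 0.207 CPM, with at most 4 counts in a 24 h library.

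The 3 chemokines that rose did so at low levels, and they were chosen after their values were seen. CCL5, a T cell attractant, went from 5.49, 8.42 and 6.13 CPM to 22.8, 12.4 and 14.3 CPM (log2 1.34, adjusted p = 0.0017). CXCL5 rose by a log2 change of 1.95 (adjusted p = 0.010) and CXCL6 by 1.64 (adjusted p = 0.034), both neutrophil attractants. At 6 h CXCL5 had 2 to 5 counts and CXCL6 4 to 6 counts in a knockout library. Of 16 alternatives the call was lost in 1 for CXCL5 and 4 for CXCL6. CXCL5 thus rose from 1.44 to 5.82 CPM while CXCL1, CXCL2 and CXCL3 of the same chromosome and a like promoter sequence fell.

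Of 18 secreted cytokines 10 were called lower and 2 higher (median -1.76, control -1.67), and on TPM 9 and 3. IL6 was at 2840, 3832 and 3087 CPM at 6 h and at 287, 216 and 174 CPM at 24 h (log2 -3.85, SE 0.32, adjusted p = 3.2e-11). IL1B, the ligand itself, was at 3387, 4442 and 3636 CPM at 6 h and at 425, 406 and 261 CPM at 24 h (log2 -3.39). Both were above their 0 h means of 1.92 and 1.32 CPM at 24 h. CSF1, the macrophage growth factor (log2 -2.97), and CLCF1, an IL-6 family ligand (log2 -2.16), fell too. INHBA, the activin A subunit, held its level to 12 h, with means of 640 and 812 CPM, and fell to 121 CPM by 24 h (log2 -2.40, chosen after its values were seen). TGFB2, a TGFβ ligand, rose from 27.8 ± 7.33 to 53.1 ± 18.1 CPM (log2 0.95, adjusted p = 0.012).

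IL11, which the reporter follows, was at 15.4, 16.9 and 9.04 CPM at 6 h and at 6.90, 10.0 and 6.38 CPM at 24 h. The times overlapped and the change did not pass the test (log2 -0.85, SE 0.36, adjusted p = 0.086), as in control cells (log2 -0.81, adjusted p = 0.14). The mean at 0 h was 1.13 CPM. The outcome of the test was the same in 13 of 16 alternatives, and in the others (no filter, without 6 h replicate 3, loess offsets) IL11 was called lower.

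Receptors that take up such signals also changed, and 8 of 22 cytokine receptors were called lower and 0 higher (median -0.44), though on TPM 2 were called lower and 3 higher. IFNGR2, a chain of the interferon-γ receptor, fell from 408 ± 73.6 to 86.1 ± 12.7 CPM (log2 -2.25) and IFNGR1, its ligand-binding chain, from 122 ± 4.84 to 41.6 ± 9.67 CPM (log2 -1.58). IL6ST, the gp130 chain shared by the receptors of IL-6, IL-11 and LIF, was at 126, 120 and 96.5 CPM at 6 h and at 44.3, 47.9 and 48.9 CPM at 24 h (log2 -1.28, adjusted p = 2.1e-07). IL7R fell from 89.2 ± 3.88 to 39.3 ± 9.23 CPM (log2 -1.16). Their 0 h means were 93.4 CPM for IFNGR2, 43.4 CPM for IL6ST and 38.4 CPM for IL7R, close to the 24 h means of the same genes. The 0 h mean of IFNGR1 was 29.1 CPM, below its 24 h mean.

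Of 21 AP-1, EGR and other immediate-early factors 12 were called lower and 0 higher (median -0.94, control -0.86), and on TPM 8 were lower and 2 higher. FOSL1, an AP-1 subunit, was at 228, 381 and 319 CPM at 6 h and at 70.3, 85.0 and 53.5 CPM at 24 h (log2 -2.16), under its 0 h mean of 127 CPM. DUSP6, a phosphatase of ERK, fell from 88.0 ± 2.81 to 13.5 ± 3.59 CPM (log2 -2.73) and DUSP4, of the same family, by a log2 change of -2.27. MAFF, a small MAF factor (-2.03), and KLF6, a zinc finger factor (-1.83), were also lower.

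Growth factors were among the genes that moved most. Of 22 tested 9 were called lower and 4 higher (median -0.71, control -0.85), and on TPM 7 and 5. EREG, a ligand of the EGF receptor, was at 617, 759 and 354 CPM at 6 h and at 72.2, 38.5 and 55.4 CPM at 24 h (log2 -3.36). FGF5 fell by a log2 change of -1.85, ANGPT1, a ligand of the TIE2 receptor, by -1.51, and FGF2 by -1.89. IGF2 had 0 counts in all 3 libraries at 6 h and 85 to 112 counts at 24 h, which is at least 10.8-fold higher when 3 counts per library are set as the floor. BDNF went from 3.25 ± 1.07 to 14.5 ± 4.19 CPM (log2 2.16, adjusted p = 2.1e-05). FGF2, IGF2 and BDNF were chosen after their values were seen.

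In prostaglandin metabolism 8 of 15 genes were called lower and 3 higher (median -0.90, control -0.80 with 3 and 3), on TPM the calls were 2 lower and 3 higher, and without the libraries that stood apart 6 and 3. While PTGS2 fell, PTGS1, the constitutive cyclooxygenase, was at 90.9, 83.8 and 83.9 CPM at 6 h and at 229, 215 and 149 CPM at 24 h (log2 1.19, SE 0.17, adjusted p = 2.3e-06). All 24 h libraries lay above all 6 h libraries. AKR1C1, a reductase that also acts on prostaglandins and has near-identical relatives, fell from 103 ± 12.6 to 47.98 ± 11.9 CPM (log2 -1.10).

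Plasminogen genes fell and membrane and matrix proteases went the other way. Over the 25 proteases and inhibitors tested 6 were called lower and 5 higher (median 0.10), and on TPM 5 and 10. SERPINB2, an inhibitor of plasminogen activators, was at 1403, 1865 and 1373 CPM at 6 h, 3691 CPM on average at 12 h and 272, 254 and 154 CPM at 24 h (log2 -2.77). PLAUR, the urokinase receptor (log2 -2.37), PLAU, urokinase (-2.24), and PLAT, tissue plasminogen activator (-1.91), fell as well. ADAM12, a membrane metalloprotease, rose from 15.8 ± 3.41 to 69.7 ± 2.23 CPM (log2 2.12). MMP2, a gelatinase, was at 471, 596 and 502 CPM at 6 h and at 1288, 874 and 494 CPM at 24 h, so that replicate 3 overlapped with the 6 h libraries (log2 0.76, adjusted p = 0.032), and the log2 change was 1.06 without the libraries that stood apart. MMP3, a stromelysin chosen after its values were seen, had a log2 change of 0.41 (adjusted p = 0.34), and without those libraries 0.69 (adjusted p = 0.020).

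**Figure D2:**
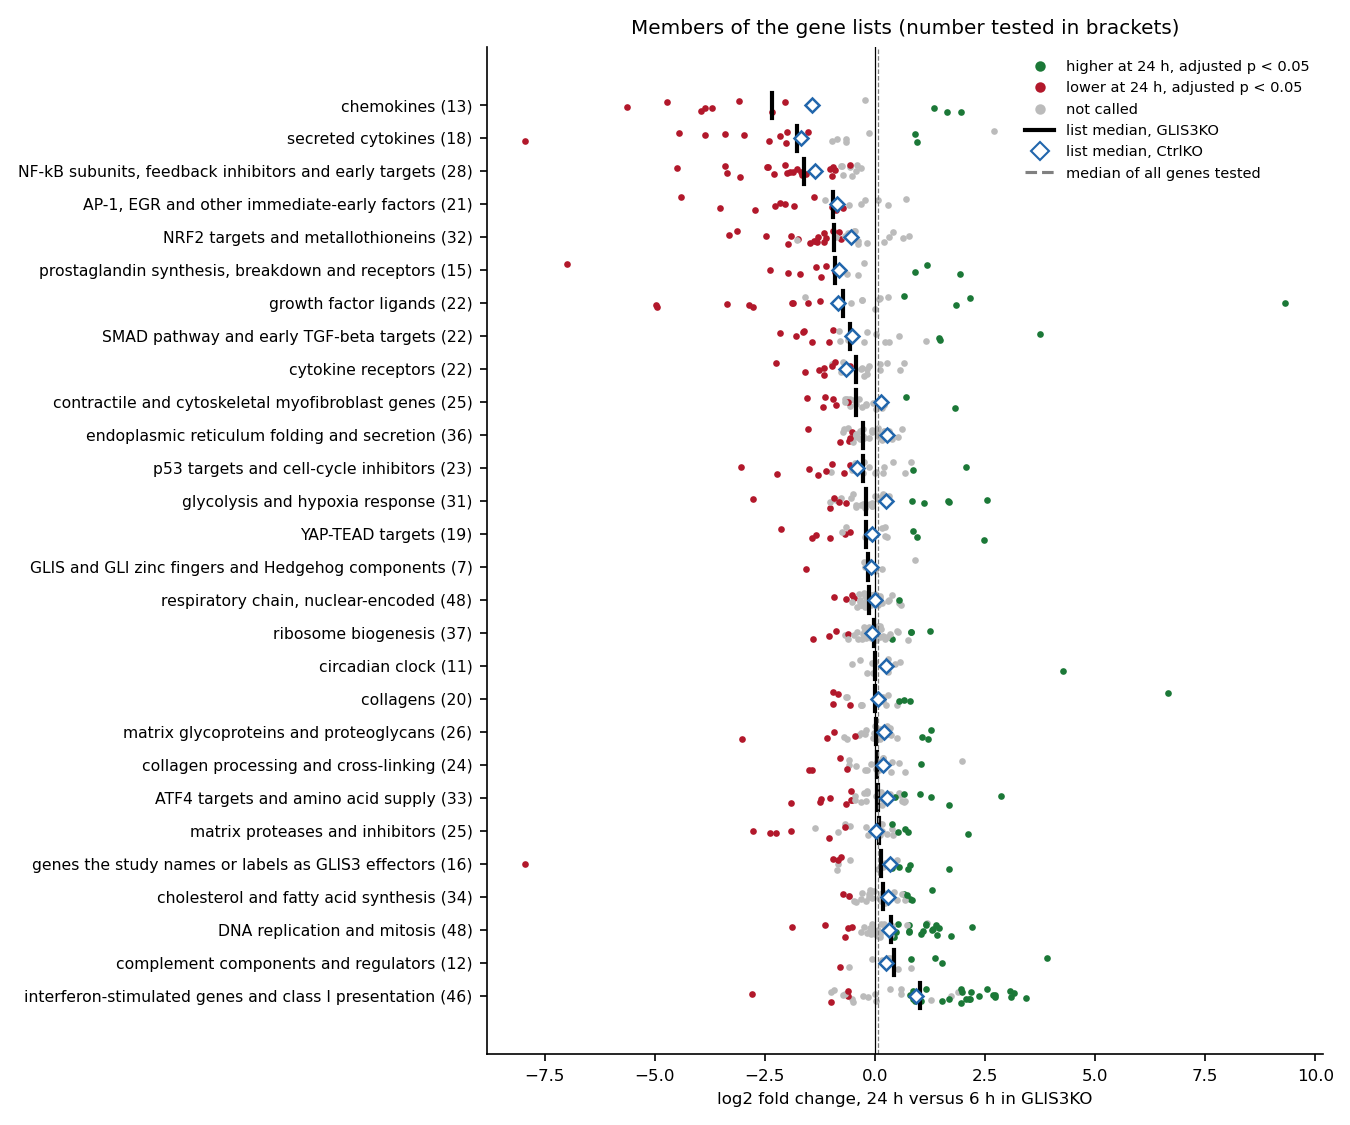
Log2 fold change from 6 to 24 h in GLIS3 CRISPRko of every tested member of each gene list (numbers tested in brackets), with points coloured by call, a black bar for the list median, a blue diamond for the control median and a dashed line for the median of all genes tested. The chemokine, cytokine and NF-κB medians lie lowest (-2.33, -1.76 and -1.61) and the interferon median highest (1.03).

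The largest rises were of another kind. By the same rule the 15 genes rose by log2 values between 2.68 and 5.12, 12 of them ended above their 0 h mean, and in all 15 the 12 h mean lay between the other times. The first was ZP4, a zona pellucida glycoprotein gene at chr1:237877864-237890922, with 2.40, 1.98 and 1.94 CPM at 6 h, 43.6 on average at 12 h, and 72.8, 88.3 and 64.1 CPM at 24 h (log2 5.12, adjusted p = 1.6e-14). In control cells its log2 change was 5.11. C3, the central complement component, had at most 9 counts in a 6 h library and was at 27.2, 30.04 and 21.02 CPM at 24 h (log2 3.90, SE 0.49). LRRC15, a membrane protein induced by TGFβ, rose from 22.4 ± 5.22 to 173 ± 12.4 CPM (log2 2.93) and STEAP2, a metalloreductase, from 1.75 ± 0.969 to 18.4 ± 4.16 CPM (log2 3.37).

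Other genes in this group had been lower at 6 h than at 0 h. ID1, an inhibitor of helix-loop-helix factors, had a 0 h mean of 290 CPM, stood at 10.97, 16.9 and 20.7 CPM at 6 h and at 202, 222 and 228 CPM at 24 h (log2 3.75, adjusted p = 3.6e-14). TXNIP, a thioredoxin inhibitor, went from 9.74 ± 1.60 to 86.9 ± 33.7 CPM (log2 3.13) and MAB21L1 from 3.98 ± 0.212 to 34.2 ± 9.74 CPM (log2 3.12), with 38.3 and 58.9 CPM at 0 h, so that TXNIP ended above and MAB21L1 below its 0 h mean. PRIM1, the small DNA primase subunit, rose by a log2 change of 2.99, from 2.37 CPM at 6 h to 18.5 CPM at 24 h, above its 0 h mean of 7.42 CPM. C15orf38-AP3S2, a readthrough of neighbouring genes whose counts depend on how shared reads were assigned, was called too (log2 2.85, adjusted p = 0.00033) and was the gene of the 15 not called in control cells (log2 0.33).

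The other 6 of the largest rises were interferon-stimulated genes. The interferon list, which also holds class I presentation genes, had a median of 1.03 (control 0.94), with 26 of 46 members called higher and 4 lower. On TPM 30 were higher and 1 lower, and without the libraries that stood apart 29 were higher and 2 lower, with a median of 1.31. IFI6, which acts against several viruses, was at 81.3, 95.6 and 80.4 CPM at 6 h and at 873, 601 and 176 CPM at 24 h (log2 2.68, SE 0.34, adjusted p = 3.8e-07). MX1, an antiviral GTPase, was at 8.57, 5.45 and 6.46 CPM at 6 h and at 68.8, 77.1 and 33.4 CPM at 24 h (log2 3.08). In both genes replicate 3 was the lowest of the 24 h libraries. It lay above every 6 h library, as the naming rule required.

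MX2, a relative of MX1 (log2 3.08), HERC6 (log2 3.26) and the 2-5A synthetases OAS1 (log2 2.74) and OAS2 (log2 2.72) completed the group. STAT2, a factor that carries the interferon signal, rose from 12.4 ± 2.68 to 49.6 ± 11.3 CPM (log2 1.98). IFI35 (log2 2.18) and IFI44 (log2 2.13) rose, as did ISG15, a ubiquitin-like protein (log2 2.17), and IFIT1, a sensor of viral RNA (log2 2.37), the last 2 chosen after their values were seen.

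GBP3, a guanylate-binding protein, went against the list, falling from 250 ± 87.5 to 37.02 ± 11.4 CPM (log2 -2.78, adjusted p = 1.4e-10). The class I genes HLA-E and HLA-B did not pass as higher. HLA-E was at 933, 1820 and 1032 CPM at 6 h and at 528, 1022 and 364 CPM at 24 h, which overlapped (log2 -0.99, adjusted p = 0.023), and the call was lost without the libraries that stood apart (log2 -0.69, adjusted p = 0.12). HLA-B had a log2 change of -0.68 (adjusted p = 0.22). Both were chosen after their values were seen, and both have near-identical relatives with which reads can be shared.

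The promoters of IFI6 and IFIT1 are shown because they carry the repeated letters that interferon-activated factors are known to recognise. Capitals mark GAAANNGAAA or its reverse complement TTTCNNTTTC, searched on both strands, and a match to this motif and to the κB-type letters may overlap. IFI6 is at chr1:27672193-27672442 (minus strand) and IFIT1 at chr10:89392373-89392622 (plus), both RefSeq on GRCh38.p14 and written along the gene's strand.
IFI6: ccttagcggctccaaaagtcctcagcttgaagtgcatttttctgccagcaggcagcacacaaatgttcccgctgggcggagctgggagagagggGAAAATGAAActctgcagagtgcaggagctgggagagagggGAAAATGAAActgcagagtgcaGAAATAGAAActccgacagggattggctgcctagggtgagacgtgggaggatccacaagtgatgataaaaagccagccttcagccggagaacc
IFIT1: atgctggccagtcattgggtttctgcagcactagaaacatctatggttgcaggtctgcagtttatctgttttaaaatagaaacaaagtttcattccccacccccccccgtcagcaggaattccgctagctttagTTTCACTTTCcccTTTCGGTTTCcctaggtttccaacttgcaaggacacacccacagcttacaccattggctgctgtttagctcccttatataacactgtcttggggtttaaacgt

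The letters occurred 3 times in IFI6 and 2 times in IFIT1. They were in 20 of 34 matched promoters of the interferon list (58.8%), against 3.07% of all RefSeq promoters of this length, in 1 of 24 of the NF-κB list and in none of 10 chemokine promoters. Some interferon genes that rose, MX1 and OAS1 among them, had no match in this window.

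Complement genes numbered 12 tested, of which 4 were called higher and 1 lower (median 0.44, control 0.25), and on TPM 6 and 0. Besides C3, the proteases C1R (log2 1.52) and C1S (log2 0.82) and the decay-accelerating receptor CD55, at 59.3, 72.4 and 62.3 CPM at 6 h and at 183, 152 and 159 CPM at 24 h (log2 1.36), were higher. CD46, another regulator on the cell surface, was lower (log2 -0.79).

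Among 22 SMAD pathway genes and early TGFβ targets 7 were called lower and 3 higher (median -0.56, control -0.52), a balance that turned on TPM to 3 lower and 6 higher. SMAD7, the inhibitory SMAD, fell from 27.5 ± 3.00 to 8.71 ± 1.42 CPM (log2 -1.62, chosen after its values were seen) and SMAD3, a signal transducer, from 15.7 ± 3.65 to 3.34 ± 1.08 CPM (log2 -2.15). SNAI2, a repressor of epithelial genes (log2 -1.43), and TSC22D1, a TGFβ-induced factor (log2 -1.80), were also lower. The genes that rose were ID1, ID2 (log2 1.45) and ID3 (log2 1.49), which all had higher means at 0 h than at 6 h.

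Of 48 genes of DNA replication and mitosis 17 were called higher and 5 lower (median 0.37, control 0.32), and on TPM 35 and 1. Subunits of the MCM helicase were among those higher. MCM2 was at 38.8, 31.7 and 34.2 CPM at 6 h and at 96.5, 104 and 78.8 CPM at 24 h (log2 1.40, adjusted p = 2.6e-08), MCM3 changed by 1.29 and MCM6 by 1.32. MCM10 (log2 2.20) and CDC6 (log2 1.46), which help to load and start the helicase, and UHRF1, a maintenance factor of DNA methylation (log2 1.06), were higher too. In contrast CCND1, cyclin D1, was at 3416, 4589 and 3274 CPM at 6 h and at 1174, 1102 and 790 CPM at 24 h (log2 -1.88), and CKS2, a cyclin kinase subunit, fell by a log2 change of -1.13, both chosen after their values were seen.

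Of 23 p53 targets and cell-cycle inhibitors 8 were called lower and 2 higher (median -0.26, control -0.39), and on TPM 3 and 7. TNFRSF10B, a TRAIL receptor, fell from 281 ± 23.9 to 34.2 ± 6.97 CPM (log2 -3.03). CDKN1A, the p21 inhibitor, was at 792, 1336 and 774 CPM at 6 h and at 277, 233 and 115 CPM at 24 h (log2 -2.22), and GADD45A changed by -1.50.

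Contractile genes were called in both directions, and their calls changed when the libraries that stood apart or 6 h replicate 2 were left out. Of 25 tested 6 were called lower (24%) and 2 higher (8%), against 12.1% each way of all genes tested. The median was -0.43 (control 0.15), and on TPM 0 were lower and 5 higher. Leaving out 6 h replicate 2 gave 1 lower and 2 higher (median -0.26). Leaving out the libraries that stood apart gave 2 and 2 (median -0.25). With offsets that follow expression level (loess) 3 were lower and 7 higher, with a median of 0.19. ACTA2, smooth muscle actin, was at 1138, 2961 and 1485 CPM at 6 h and at 801, 1143 and 604 CPM at 24 h, which overlapped (log2 -1.13, adjusted p = 0.017), and without those libraries adjusted p = 0.051. ACTC1, cardiac actin, overlapped likewise (log2 -1.54, and -1.19 with adjusted p = 0.066 without them). CSRP1 (log2 -0.95) and VCL, vinculin (log2 -0.88), passed the test both ways, but each lost its call in 5 of 16 alternatives. LMOD1, leiomodin, rose from 16.5 ± 4.62 to 56.6 ± 16.8 CPM (log2 1.82) and TGFB1I1 by a log2 change of 0.70.

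Collagens were split, with 4 of 20 called higher, 4 lower and a median of 0.01, although on TPM 9 were higher and 0 lower, and without the libraries that stood apart the median was 0.30 (4 higher and 3 lower). COL10A1 had 0 or 1 counts at 6 h and 55 to 161 counts at 24 h. COL6A1, COL6A2 and COL7A1 rose by log2 changes of 0.55, 0.81 and 0.66, COL6A1 with overlapping libraries. COL4A1 (log2 -0.94) and COL5A2 (log2 -0.94) were lower with overlapping libraries, and COL6A3 (log2 -0.84) and COL8A1 (log2 -0.56) without overlap, and the call of COL4A1 was lost without the libraries that stood apart (adjusted p = 0.060). COL1A1, chosen after its values were seen, was at 3146, 5607 and 2275 CPM at 6 h and at 7676, 2647 and 890 CPM at 24 h, a spread within one time larger than the difference between times (log2 0.02, adjusted p = 0.98).

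Among matrix glycoproteins 4 of 26 were called lower (15.4%) and 3 higher (11.5%), near the 12.1% each way of all genes tested. Their median was 0.03, and on TPM 1 was lower and 11 higher. Among genes of collagen processing 4 of 24 were lower (16.7%) and 1 higher (4.17%), with a median of 0.05, and on TPM 2 and 13. HAS2, a hyaluronan synthase, was at 835, 915 and 511 CPM at 6 h and at 120, 81.6 and 79.0 CPM at 24 h (log2 -3.01). The crosslinking enzymes LOX (log2 -1.50) and LOXL2 (log2 -1.42) fell, whereas LOXL4 rose from 120 ± 18.5 to 247 ± 57.6 CPM (log2 1.04). THBS1, thrombospondin-1, rose from 6445 ± 1580 to 15640 ± 5870 CPM (log2 1.28, adjusted p = 0.0095), and DCN, decorin, by a log2 change of 1.06. TNC, tenascin-C, was lower with overlapping libraries (log2 -1.08), and LAMB1, a laminin chain, was lower without overlap (log2 -0.93).

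Redox genes were lower where they were called. Of 32 NRF2 targets and metallothioneins 17 were called lower and 0 higher (median -0.92), against 12 lower and 3 higher in control cells (median -0.55), and on TPM 9 were lower and 2 higher. TXNRD1, thioredoxin reductase, was at 3284, 4071 and 2672 CPM at 6 h and at 382, 323 and 307 CPM at 24 h (log2 -3.31, adjusted p = 1.8e-11), under its 0 h mean of 983 CPM. HMOX1, haem oxygenase, fell from 42.8 ± 12.9 to 5.50 ± 2.87 CPM (log2 -3.13), SLC7A11, a cystine transporter, by a log2 change of -1.91, and NQO1, a quinone reductase chosen after its values were seen, by -1.39.

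Of 33 ATF4 targets and amino acid genes 8 were lower and 6 higher (median 0.08, and on TPM 2 and 14). ATF4, the factor of the integrated stress response, fell from 517 ± 56.1 to 222 ± 42.1 CPM (log2 -1.22), while SLC38A2, an amino acid transporter, rose from 164 ± 23.1 to 331 ± 52.0 CPM (log2 1.02) and DDIT4, an inhibitor of mTORC1, by 1.69. Of 19 YAP and TEAD targets, which on TPM gave 3 lower and 7 higher, 6 were lower, F3, tissue factor (log2 -2.14), and AXL, a receptor kinase (log2 -1.33), among them, and 3 were higher, ANKRD1 (log2 2.48) among them. CTGF (CCN2) was lower with a log2 change of -1.02 (adjusted p = 0.024, chosen after its values were seen), but the call was lost in 9 of 16 alternatives.

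The remaining metabolic lists are set beside all genes tested, of which 12.1% were called higher and 12.1% lower. On TPM the calls of these lists were mostly higher (15 and 0 lower for cholesterol, 11 and 0 for glycolysis, 11 and 1 for ribosome biogenesis, 12 and 0 for the respiratory chain). In cholesterol and fatty acid synthesis 5 of 34 were higher (14.7%) and 2 lower (5.88%), with SQLE lower (log2 -0.72) and FADS1 (0.73) higher. In glycolysis and hypoxia 5 of 31 were higher and 5 lower (16.1% each), with BNIP3 (1.12) and ENO2 (1.68) higher and ADM, adrenomedullin (-0.81), lower. In ribosome biogenesis 4 of 37 were higher and 4 lower (10.8% each), with DDX21 (-1.41) lower and POLR1A (1.25) higher. In the respiratory chain 4 of 48 were lower (8.33%), ATP5G3 (log2 -0.92) among them, and 1 higher (2.08%). Of 11 clock genes PER3 alone was called (log2 4.28, adjusted p = 5.0e-05), at 1.03, 0 and 0 CPM at 6 h and at 6.38, 7.28 and 9.19 CPM at 24 h.

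The same interval in control cells, in other libraries, gave 1604 calls (14.6%), 756 higher (6.9%) and 848 lower (7.74%). On TPM 213 were higher and 504 lower, a lean opposite to that of the knockout on the same scale. Across the 10962 genes the change in GLIS3 CRISPRko and in control cells had a Pearson r of 0.57, a value across genes, which are not independent. Of the genes called in both, 1073 moved the same way and 1 the opposite way, and the shared calls were 40.5% of the knockout calls and 67.0% of the control calls. The standard deviation of the change over genes was 0.92 in the knockout and 0.79 in control cells.

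**Figure D3:**
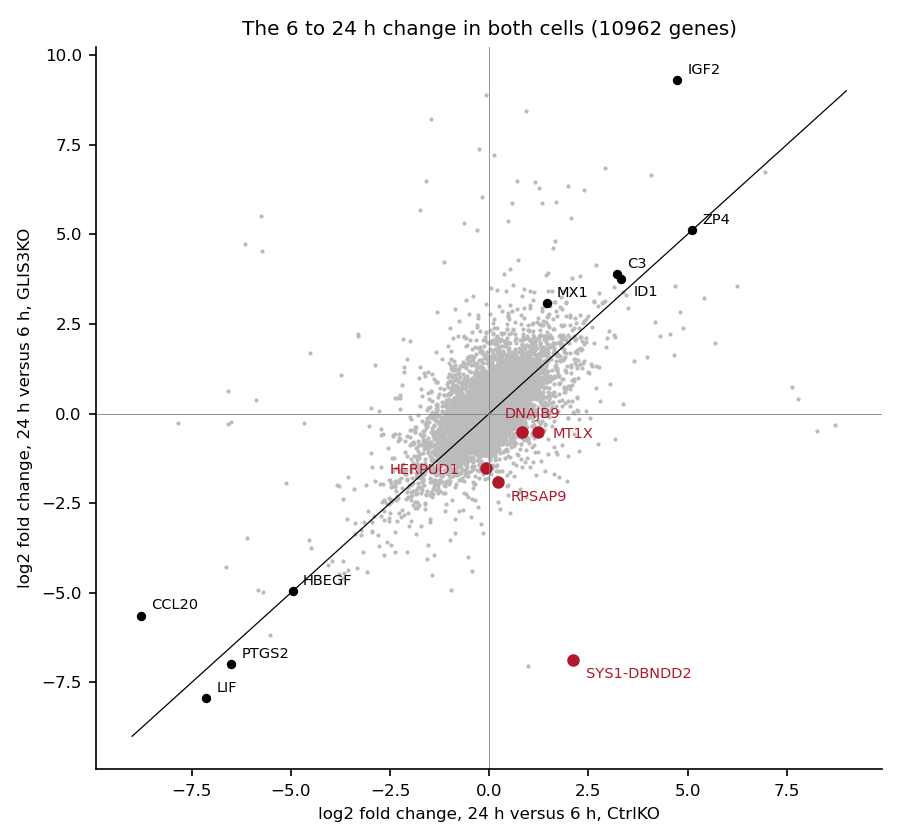
Log2 fold change from 6 to 24 h of 10962 genes in control cells (horizontal) and GLIS3 CRISPRko (vertical), with the line of equality. Points scatter about the line (r = 0.57), with LIF low and ZP4 high in both cells, and the 5 genes called for a difference, in red, all lie below it.

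When the difference between the 2 changes was itself tested, 5 genes (0.0456%) passed. All of them had the more negative change in GLIS3 CRISPRko, and 1229 genes were at an unadjusted p under 0.05. A gene that did not pass is not shown to behave alike in both cells. HERPUD1, a part of the degradation machinery of the endoplasmic reticulum at chr16:56932142-56944864, was at 378, 517 and 510 CPM at 6 h and at 164, 156 and 170 CPM at 24 h in the knockout. In control cells it was at 216, 222 and 244 CPM at 6 h and at 217, 214 and 212 CPM at 24 h. The knockout libraries were thus above control at 6 h and below control at 24 h, with a mean of 356 CPM at 12 h against a control range of 380 to 486 CPM. The change was -1.52 in the knockout and -0.08 in control cells, a difference of -1.43 (SE 0.22, adjusted p = 0.0020).

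DNAJB9, a cofactor of the chaperone HSPA5 at chr7:108569867-108574850, was at 80.2, 87.7 and 103 CPM at 6 h and at 71.5, 64.6 and 52.7 CPM at 24 h in the knockout. Control libraries held 48.9, 55.3 and 41.5 CPM at 6 h and 90.8, 86.5 and 79.7 CPM at 24 h. The gene fell in one and rose in the other, with changes of -0.53 and 0.82 and a difference of -1.34 (adjusted p = 0.021). Without the libraries that stood apart the knockout change no longer passed (log2 -0.39, adjusted p = 0.081). At 12 h both cells were at a higher level, 161 to 190 CPM in the knockout and 148 to 192 CPM in control cells.

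MT1X, a metallothionein at chr16:56682470-56684196, was at 60.02, 81.8 and 47.4 CPM at 6 h and at 43.5, 53.4 and 35.5 CPM at 24 h in the knockout, which overlapped (log2 -0.52, adjusted p = 0.12). In control cells it went from 27.7, 37.2 and 32.9 CPM to 49.5, 95.8 and 85.8 CPM (log2 1.23), and the difference was -1.75 (adjusted p = 0.034). MT1E, a close relative chosen after its values were seen, had a log2 change of -1.15 against 0.02, a difference that did not pass (-1.18, adjusted p = 0.20). Reads of metallothioneins can be shared between near-identical copies.

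The other two are uncertain as transcripts. RPSAP9, a ribosomal protein pseudogene, was at 18.2, 29.2 and 13.6 CPM at 6 h and at 4.82, 6.37 and 4.98 CPM at 24 h in the knockout, with a difference of -2.15 (adjusted p = 0.021). Its control means were 8.36 CPM at 6 h and 9.92 CPM at 24 h. SYS1-DBNDD2, a readthrough of neighbouring genes, had 5 to 10 counts at 6 h and 0 counts in all 3 libraries at 24 h in the knockout, which is at least 3.09-fold lower at a floor of 3 counts per library. In control cells it had 0 to 4 counts at 6 h and 4 to 12 at 24 h, and its fitted difference (-8.98, adjusted p = 0.018) depends on the zeros and is no bound.

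**Figure D4:**
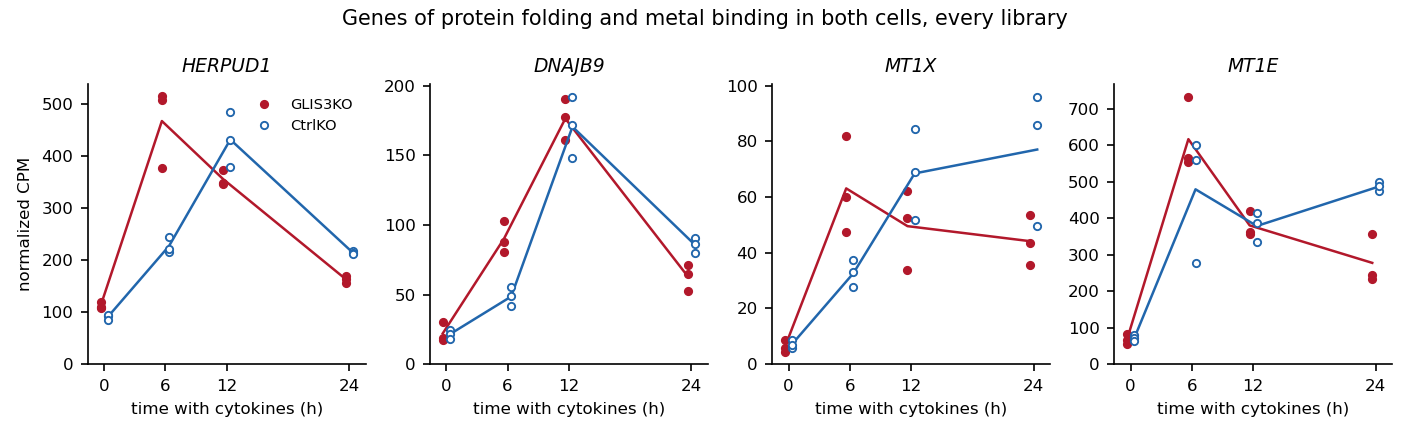
Normalized CPM of HERPUD1, DNAJB9, MT1X and MT1E by hours with TGFβ and IL-1β in both cells, with a point per library and lines joining the means of 3 libraries. HERPUD1 in the knockout is above control at 6 h (378 to 517 against 216 to 244 CPM) and below it at 24 h (156 to 170 against 212 to 217 CPM).

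The folding and secretion list, which holds HERPUD1 and DNAJB9, had 5 of 36 members lower and 0 higher in the knockout (median -0.27) and 1 lower and 6 higher in control cells (median 0.29). Without the libraries that stood apart the knockout counts were 2 lower and 1 higher (median -0.09), on TPM they were 1 and 11, and with loess offsets 2 and 5 (median 0.14). HSPA5, the main chaperone of the endoplasmic reticulum, chosen after its values were seen, was at 2571, 3199 and 2433 CPM at 6 h and at 2666, 1391 and 894 CPM at 24 h, which overlapped (log2 -0.73, adjusted p = 0.078).

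Of 16 genes that the study names or labels as GLIS3 effectors 5 were called higher and 4 lower from 6 to 24 h in the knockout, and 7 and 2 in control cells, and on TPM 9 and 1 in the knockout. The study chose this list on these samples, at 24 h, so that it is not independent evidence of a direction. The genes lower were LIF, COL4A1, COL6A3 and PDGFRA, a growth factor receptor (log2 -0.76), and those higher were FAP, a serine protease (log2 0.40), COL6A1, MMP2, COL6A2 and DDIT4. Of 16 alternatives the call was lost in 8 for FAP and COL4A1, 6 for MMP2 and 5 for PDGFRA. It was lost in 4 for COL6A3, 3 for COL6A1, 2 for COL6A2 and 0 for LIF and DDIT4. PTGFR, a prostaglandin receptor, had a log2 change of -0.85 (adjusted p = 0.092) and TGFBI, a matrix protein, of 0.24 (adjusted p = 0.49). GLIS3 was at 1.37, 1.49 and 1.61 CPM at 6 h and at 1.04, 1.21 and 1.64 CPM at 24 h (log2 -0.16, adjusted p = 0.90), against 4.42 to 6.47 and 2.47 to 3.80 CPM in control cells. Of 7 GLIS, GLI and Hedgehog genes tested GLIS2 alone was called (log2 -1.57, adjusted p = 0.0061).

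The direction of the change went with how highly a gene was expressed. Over 10 bins of about equal size by mean level the median log2 change in the knockout went from 0.48 in the lowest bin to -0.45 in the highest, where 425 genes were called lower and 38 higher, while in control cells the highest bin had a median of 0.01. Without the libraries that stood apart the highest bin was at -0.35 in the knockout and -0.14 in control cells. With loess offsets, which follow expression level, 2374 genes were called, 1209 higher and 1165 lower. Of the 158 genes named, 141 kept direction and outcome with these offsets, 12 lost their call, 4 gained one and 1 turned in sign. The cause of the trend was not tested.

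**Figure D5:**
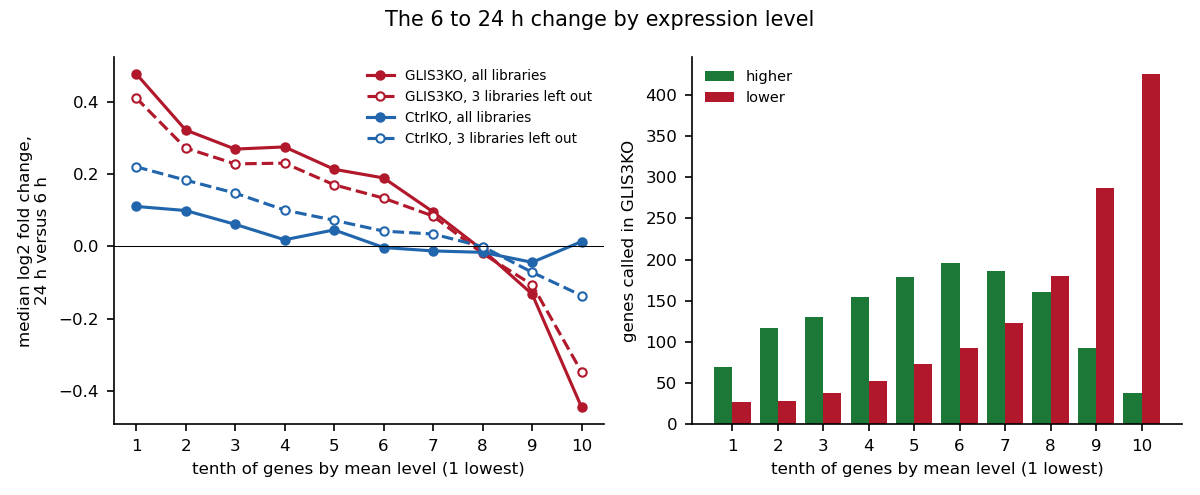
Median log2 fold change from 6 to 24 h against 10 bins of mean expression level (1 lowest, 10 highest) in both cells, with all libraries and without the 3 that stood apart, and bars of the genes called higher and lower in the knockout per bin. The knockout median falls from 0.48 to -0.45 with all libraries, and 425 genes of the highest bin are called lower.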

How the data were processed

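RNA was extracted with TRIzol, made into Nextera XT libraries and sequenced on a NextSeq 500. Per the methods and the submitters' processing notes, the authors used Trim Galore for trimming and SortMeRNA against ribosomal reads, aligned to GRCh38 with STAR and quantified with Salmon; their versions and the counting strand were not given in the sources used here. The deposited estimated counts were left unscaled by the authors. The deposited TPM values form a second table, which scales Salmon's estimates for length and to one total per library. Both hold 29744 genes, under older symbols in places.

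Samples were grouped by their labels. After rounding of the estimated counts, all 24 CRISPRko libraries (2485059 to 8542400 counts each) were fitted in 8 groups with edgeR 4.0.16 in R 4.3.3, with TMM, filterByExpr (minimum count 10, total 15) and the two-sided quasi-likelihood F test. SE is the log2 change divided by the square root of F. The CRISPRa arm, whose labels conflict, was not used. CPM are on TMM-scaled library sizes, except the marker sums, which use library totals. A gene was called where its p, adjusted by Benjamini-Hochberg across the 10962 genes, was below 0.05.

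Named genes were the 15 largest called changes per direction with no overlap and a mean of at least 10 CPM, up to 6 called genes per list by smallest p, the genes expected from the study or pathway, and every gene called for the difference between cells. Members and lists were chosen with earlier results of these data known. Lists were described by counts and medians, without a test. Some genes that the rule names are not reported here. Promoters came from RefSeq and the fit was checked on simulated counts.

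Alternatives were DESeq2 1.42.0, its size factors in edgeR, no filter, a fit of the compared libraries alone, a block for replicate number, each of 2 pseudocounts (1 and 0.1) for limma 3.58.1 with log2 TPM, and each library left out. Leaving out the 3 libraries with a TMM factor above 1.3 and loess offsets were added after seeing the data.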

Additional observations from a re-analysis of the deposited data

Results flagged for a closer look

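In all, 5 genes changed differently from 6 to 24 h in GLIS3 CRISPRko than in control cells by the test of the difference itself (edgeR's quasi-likelihood test, Benjamini-Hochberg adjustment over 10962 genes). The differences on the log2 scale, knockout minus control, were -1.43 for HERPUD1, -1.34 for DNAJB9, -1.75 for MT1X, -2.15 for RPSAP9 and -8.98 for SYS1-DBNDD2. All 5 differences were negative under every alternative that gave a value. Each gene had a higher mean in the knockout than in control cells at 6 h and a lower one at 24 h. For HERPUD1 these means were 468 against 228 CPM at 6 h and 164 against 214 CPM at 24 h. HERPUD1 passed in 18 of 22 alternatives and SYS1-DBNDD2 in 16 of 21, and DNAJB9 passed in 9 of 22, RPSAP9 in 11 of 21 and MT1X in 8 of 21. Without the 3 libraries that stood apart HERPUD1 alone passed (log2 -1.41, adjusted p = 0.0039).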

How the results depend on the processing

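The count of calls from 6 to 24 h in GLIS3 CRISPRko (2649) became 4065 with limma on log2(TPM + 1), and lay between 1771 (without 6 h replicate 2) and 2725 with single libraries left out; 114 of the 149 called genes named kept direction and call under every alternative. From 6 to 12 h (962) limma gave 300, 275 with a pseudocount of 0.1 and 305 without a filter, and leaving out libraries gave 610 to 731, the lowest without 6 h replicate 2. From 12 to 24 h (1789) the fit of only the libraries compared gave 1102 and limma on log2(TPM + 0.1) 1149. In control cells (1604) limma gave 717, 667 and 719 in the same order. For the difference between cells (5) DESeq2 called 134, of which 133 were negative, but gave an adjusted p to 1488 genes only. No filter gave 107, only the libraries compared 3, loess offsets 2, and leaving out the 3 libraries that stood apart 1. Limma on TPM without a filter gave 0, with 3720 genes at an unadjusted p under 0.05. Leaving out single libraries gave 1 to 19, with knockout 24 h replicate 1 (18), 2 (19) and 3 (1), knockout 6 h replicate 2 (1), control 24 h replicates 2 (2) and 3 (1) and control 6 h replicates 1 (2) and 3 (3) moving it by over 1.5 times. Under the replicate block 2578 genes were called from 6 to 24 h and 5 for the difference. Deviations from the group mean correlated at 0.00597 to 0.0854 between same-numbered knockout libraries. Between different-numbered ones they correlated at -0.266 to 0.239. With 3 libraries per group these values cannot tell whether same-numbered libraries shared a culture or batch.

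The sign of a log2 change turned on TPM for DNAJB9 (0.0881, or 0.0902 with a pseudocount of 0.1), COL8A1 (0.0544 and 0.0554), MT1X (0.113) and GLIS3 (0.121 and 0.352). It turned with loess offsets for HLA-B (0.0973), and for COL1A1 with DESeq2 (-0.0181), its size factors (-0.0178) and single libraries left out (-1.06 to 0.468). The cause was not tested. GLIS3 had at most 21 counts in a knockout library.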
